A study of Homo sapiens with 6 samples.

Results

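The genes described here are 10 genes of the actin cytoskeleton, ACTB, ACTG1, PFN1, PFN2, CFL1, TMSB10, TMSB4X, MYL6, TPM1 and TPM3, out of 24154 genes for which a value could be summed in each library. PFN1 was chosen by measured values of these libraries, since its level in 1 heat shock library stood far above the other 5, so its levels are given as a description with no test. The other 9 were chosen by their role, with earlier results of these data known, and were tested in a fit over all genes. The libraries came from HEK293 cells, a human embryonic kidney line kept at 37°C in DMEM with serum. An aliquot of cells was moved to a tube at passaging and held for 30 min in water of 45°C (HeatShock, n = 3), and the Control cells were left untreated (n = 3). Total RNA was depleted of ribosomal RNA and sequenced, and the labels say only that both groups were handled in triplicate, so the spread between libraries may be in part technical.

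Actin exists as free monomers (G-actin) and as filaments (F-actin). Profilins bind monomers and hand them to growing filament ends, β-thymosins hold monomers in reserve, and cofilin severs old filaments and returns monomers to the pool. Tropomyosins lie along the filament and myosin II pulls on it. Free actin also holds back the coactivators of SRF, the transcription factor that drives many actin genes, so the state of the filaments feeds back on the transcription of these genes. In cells of many kinds heat shock is known to disturb actin filaments.

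All 10 genes were detected in every library. A value is here the FPKM of a gene (fragments scaled by transcript length and by the mapped fragments of the library), as deposited by the authors and summed over the transcripts of the gene. Values of 3 libraries are given in the order of replicates 1, 2 and 3. The libraries differed in level as a whole. The common factor of a library, the median of the ratios of its genes to their geometric mean over the libraries, was 0.938, 0.434 and 0.957 for the Controls and 2.13, 2.32 and 0.487 for the HeatShock libraries. It was taken over 983 genes with more than 10 FPKM in every library. HeatShock replicate 3 therefore stood beside Control replicate 2 and apart from the rest of its group. Depth, known only in relative terms from the ratio of coverage to FPKM, spanned 1 to 2.02 times the shallowest library. Transcripts of 1 exon without a strand numbered 45600 to 194489 in the Controls and 17304, 30334 and 151889 in HeatShock replicates 1, 2 and 3. All 5 markers of HEK293 listed for a check, VIM, KRT8, KRT18, NEFM and NEFL, were above 1 FPKM in all 6 libraries, and the highest of 9 markers of blood, muscle, liver and fibroblasts was COL1A1 with 4.16 FPKM, while HBB was at most 0.254 and ALB at most 0.0808 FPKM.

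The order of the 9 genes without PFN1 was alike in all libraries, apart from neighbours that lay close together. TMSB10, a β-thymosin, was the most abundant of the 9, followed by ACTG1, the γ-actin of non-muscle cells, and MYL6, the essential light chain of non-muscle myosin. CFL1 (cofilin 1) and ACTB (β-actin) stood next and close together. TPM3 and PFN2 (the second profilin) formed another close pair. TMSB4X, the other β-thymosin, and TPM1 were lowest. FPKM is scaled by length, but levels of genes whose transcripts differ much in length can be compared only roughly. The annotated transcript of TMSB10 has 482 nt and that of ACTB 1812 nt. Processed pseudogenes of several of these genes share sequence with them, and how such reads were divided cannot be seen from FPKM.

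The actins were higher in HeatShock replicates 1 and 2 and not in replicate 3. ACTB (hg19, chromosome 7, 5566779 to 5570232, minus strand) had 92.2, 36.5 and 72.2 FPKM in the Controls, against 171, 181 and 43.2 FPKM in the HeatShock libraries. ACTG1 (chromosome 17, 79476997 to 79479892, minus strand) had 315, 142 and 304 FPKM in the Controls, against 759, 740 and 159 FPKM in the HeatShock libraries. In both genes HeatShock replicates 1 and 2 lay above all Controls, and HeatShock replicate 3 lay between Control replicates 2 and 3, so the groups overlapped. The log2 fold change was 0.81 ± 0.95 (SE) for ACTB and 0.90 ± 0.93 for ACTG1, and neither passed the test (limma, Benjamini-Hochberg adjusted p = 0.711 for both).

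The genes that bind monomers were high and low in the same libraries. TMSB10 (chromosome 2, 85132763 to 85133799, plus strand) had 761, 380 and 839 FPKM in the Controls, against 1867, 2056 and 422 FPKM in the HeatShock libraries. TMSB4X (chromosome X, 12993226 to 12995346, plus strand), with the same role, had 9.57, 5.42 and 10.4 FPKM in the Controls, against 18.9, 22.1 and 5.34 FPKM in the HeatShock libraries. TMSB4X was thus lower in HeatShock replicate 3 than in any Control, which held for no other member. CFL1 (chromosome 11, 65622285 to 65625804, minus strand) had 80.1, 32.7 and 70.2 FPKM in the Controls, against 202, 183 and 39.7 FPKM in the HeatShock libraries. Its log2 fold change of 0.99 ± 0.97 was the highest of the 9 genes. PFN2 (chromosome 3, 149682691 to 149688741, minus strand) had 25.2, 10.8 and 25.6 FPKM in the Controls, against 56.4, 67.0 and 11.8 FPKM in the HeatShock libraries. None of these 4 genes passed the test (limma, adjusted p = 0.711 for each).

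The genes of the filament showed the same. MYL6 (chromosome 12, 56552045 to 56555366, plus strand) had 196, 80.8 and 201 FPKM in the Controls, against 417, 506 and 94.4 FPKM in the HeatShock libraries. TPM3 (chromosome 1, 154127780 to 154164609, minus strand), a tropomyosin, had 30.1, 15.1 and 29.1 FPKM in the Controls, against 64.3, 65.5 and 17.1 FPKM in the HeatShock libraries. TPM1 (chromosome 15, 63334838 to 63364113, plus strand), another tropomyosin, had 7.64, 3.46 and 9.33 FPKM in the Controls, against 14.9, 18.5 and 4.17 FPKM in the HeatShock libraries. In each the first 2 HeatShock libraries were above, and HeatShock replicate 3 within, the range of the Controls.

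Over the 9 genes the log2 fold change as deposited was 0.64 to 0.99, with a median of 0.87, and its SE was 0.71 to 0.97. The median over all 13026 tested genes was 0.45, and over the 2915 genes averaging 10 FPKM or more it was 0.82. A gene was called at a Benjamini-Hochberg adjusted p under 0.05 and more than 2-fold, and 0 of the 9 genes were called (lowest unadjusted p = 0.301, limma), against 3 of the 13026 genes tested, or 0.023%. None of the 9 had all HeatShock libraries above or all below the Controls, against 3.71% of genes above and 2.26% below. With HeatShock replicate 3 left out, the log2 fold change of the 9 was 1.22 to 1.74. Their unadjusted p ran from 0.016 (TMSB10) to 0.0381 (TPM1), so all 9 were under 0.05 (limma). Their lowest adjusted p was 0.0793 (limma), so none was called. Low p-values were common among all 13026 genes in that fit. At an unadjusted p under 0.05, 5152 were higher and 1219 lower, and the median log2 fold change was 0.83. When the fit held a term for the 3 libraries richest in strandless transcripts, the log2 fold change of the 9 was 0.25 to 0.54 and none was called.

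**Figure D1:**
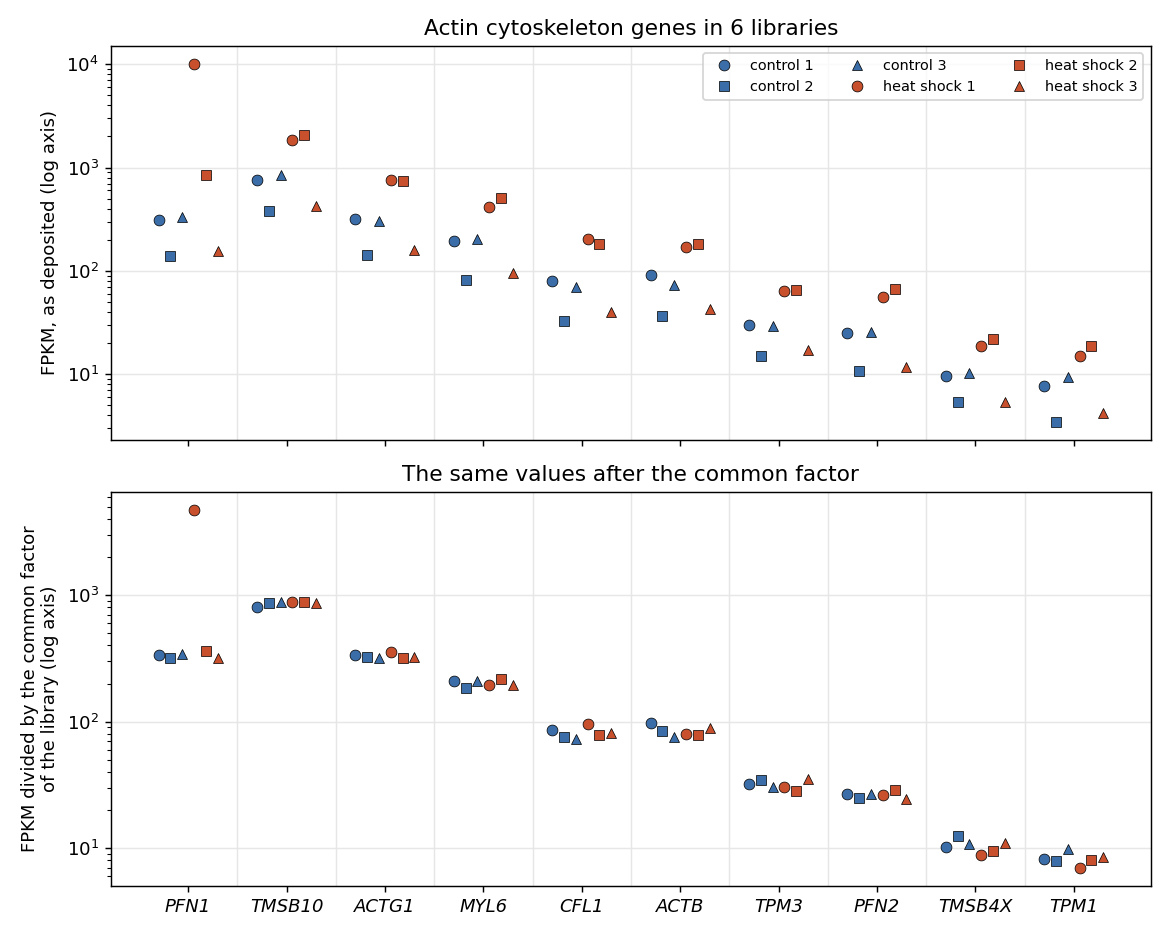
FPKM of the 10 genes in the 3 Control (blue) and 3 HeatShock (orange) libraries, 1 point per library on log axes, as deposited (top) and divided by the common factor of the library (bottom). At the top HeatShock replicates 1 and 2 are the highest in each gene, and Control replicate 2 and HeatShock replicate 3 the lowest. At the bottom the points of 9 genes lie close together, and PFN1 in HeatShock replicate 1 lies apart at 4736.

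After division by the common factor the 9 genes differed little between libraries. TMSB10 was 812, 874 and 877 in the Controls, against 876, 888 and 868 in the HeatShock libraries, in FPKM divided by the factor. ACTG1 was 336, 326 and 318 in the Controls, against 356, 319 and 327 in the HeatShock libraries. ACTB was 98.3, 84.0 and 75.4 in the Controls, against 80.2, 78.1 and 88.7 in the HeatShock libraries. The highest library was 1.09 to 1.41 times the lowest, with a median over the 9 genes of 1.24, while over the 983 genes of the factor the median was 1.41. The 983 genes were not matched to the 9 in level, so the 9 are not read as steadier than other genes. Of the 10 genes, 8 were themselves among these 983, and leaving them out moved no factor by more than 0.0414%. Groups overlapped for all 9, where 1.8% of 13862 genes were higher and 5.25% were lower in every HeatShock library on this scale.

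On this scale the log2 fold changes were of both signs and small. CFL1 was highest at 0.12 ± 0.12 (SE), TMSB10 had 0.04 ± 0.06, ACTG1 had 0.03 ± 0.07, PFN2 had 0.02 ± 0.13 and MYL6 had 0.01 ± 0.09. ACTB had -0.05 ± 0.13, TPM3 had -0.06 ± 0.14, TPM1 had -0.12 ± 0.18 and TMSB4X was lowest at -0.17 ± 0.18. In all, 5 of the 9 were above 0 and 4 below, so the sign of the change depended on the scaling for ACTB, TMSB4X, TPM1 and TPM3. None was called (limma, adjusted p = 0.91 to 0.99), as was none of the 13862 genes tested, 0.0%. At an unadjusted p under 0.05 none of the 9 was listed, against 94 higher and 342 lower genes, together 3.15% of the 13862. With a share this low, 0 of 9 says little about the members. The median was 0.01 over the 9 genes, -0.24 over all genes and -0.03 over genes of at least 10 FPKM. A bulk FPKM cannot tell fewer cells that express a gene from less RNA in each cell.

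The 4 genes taken as a check of the heat shock response were higher in all HeatShock libraries after the common factor. As deposited, DNAJB1, a cochaperone, had 7.32, 4.84 and 9.18 FPKM in the Controls, against 121, 116 and 34.0 FPKM in the HeatShock libraries, so HeatShock replicate 3 was above all Controls as well. After the factor the log2 fold change was 2.51 ± 0.20 for DNAJB1, 1.87 ± 0.21 for HSPA1B, 1.10 ± 0.21 for HSPA1A and 0.35 ± 0.16 for HSPH1. The groups did not overlap in these 4 genes on this scale, and none passed the adjusted test (limma, adjusted p = 0.14 for DNAJB1). HSPA1A and HSPA1B are near-identical copies, so reads may be divided between them.

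Since a share within a library does not depend on the scale of that library, each gene was also expressed as a share of the summed FPKM of the 9 genes without PFN1. TMSB10 made up 52.6% ± 2.0 (SD, n = 3) of the sum in the Controls and 52.9% ± 0.6 after heat shock. ACTG1 held 20.1% ± 0.6 and 20.2% ± 1.0, and MYL6 12.4% ± 0.8 and 12.2% ± 0.8. ACTB held 5.29% ± 0.74 in the Controls and 4.97% ± 0.39 after heat shock, while CFL1 held 4.80% ± 0.42 and 5.14% ± 0.47. The order of ACTB and CFL1 differed between libraries, and TMSB4X and TPM1 each held at most 0.767% of the sum in any library. The groups overlapped for all 9 shares, and no share passed the exact permutation test (two-sided, p = 0.3 to 1, adjusted p = 1 over 9 tests), which cannot give a p below 0.1 with 3 libraries against 3. The sum itself, divided by the common factor, was 1625 ± 7 in the Controls and 1657 ± 19 after heat shock (SD, n = 3). By library it was 1618, 1625 and 1632 in the Controls, against 1676, 1657 and 1638 in the HeatShock libraries. The groups thus did not overlap in the sum, but this small difference was not tested and has no background over other genes.

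**Figure D2:**
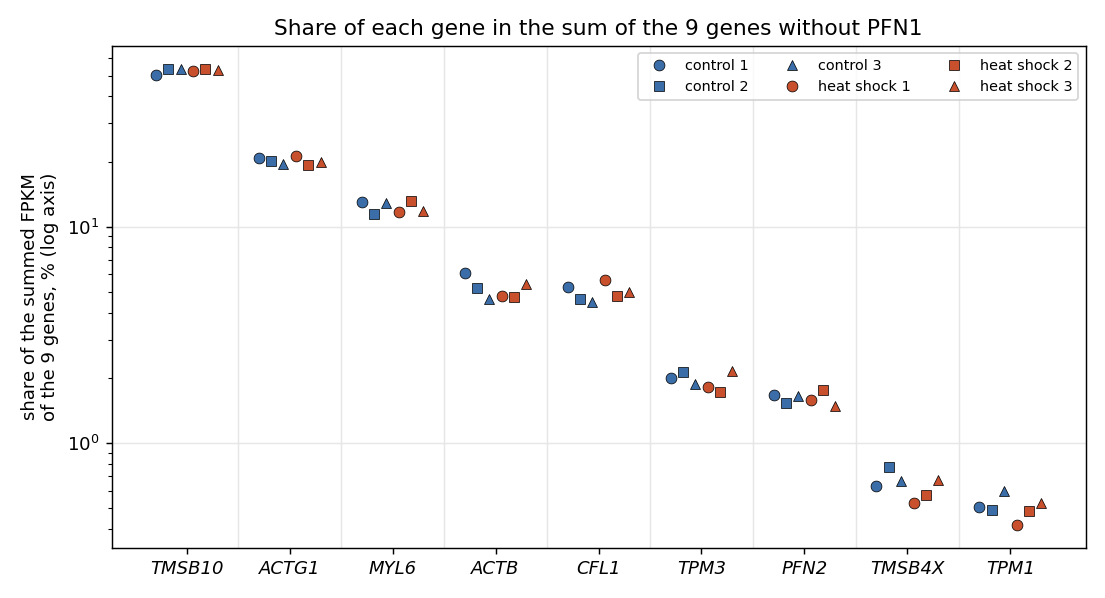
Share of each gene in the summed FPKM of the 9 genes without PFN1, in percent on a log axis, 1 point per library. Control (blue) and HeatShock (orange) points overlap in each gene, with TMSB10 near 53% and TPM1 and TMSB4X under 1%.

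The ratios of related genes overlapped between the groups. ACTG1 was 3.84 ± 0.40 times ACTB in the Controls (SD, n = 3) and 4.07 ± 0.38 times after heat shock. TMSB10 was 76.9 ± 6.0 times TMSB4X in the Controls and 90.5 ± 10.2 times after heat shock, with 99.0, 93.2 and 79.1 in HeatShock replicates 1, 2 and 3 against 70.0 to 81.1 in the Controls. TPM3 was 3.80 ± 0.63 times TPM1 and then 3.99 ± 0.41 times. In 7 comparisons of ratios and transcript shares the exact permutation test gave p = 0.2 to 0.7 (two-sided, adjusted p = 0.7 for all).

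How much of a gene was listed under annotated transcripts differed between members and libraries. ACTB, PFN2, TMSB10 and TMSB4X were listed wholly under annotated transcripts in all 6 libraries. The smooth-muscle-type and non-muscle forms of MYL6 differ in an exon, and the transcript NM_079423 held 78.9% ± 4.4 of its FPKM in the Controls and 81.3% ± 2.3 after heat shock. PFN2 was held almost wholly by NM_002628 in all libraries. TPM3 was held almost wholly by NM_153649, except in Control replicate 2, where its share was 21.8% and an assembled transcript of 2705 nt and 2 exons held 73.1%. ACTG1 in HeatShock replicate 1 was listed at 0 in its 3 annotated transcripts and wholly in 3 assembled ones of 1839 to 1988 nt. TPM1 had assembled transcripts in all 6 libraries, and the share of NM_001018006 ranged from 0% to 61.0% between libraries. These are shares of models that Cufflinks built in each library separately, and a share of 0 is a transcript listed at 0.

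PFN1, the major profilin of most cells (chromosome 17, 4848945 to 4852381, minus strand), was near ACTG1 in 5 libraries and far above it in 1. PFN1 had 314, 139 and 329 FPKM in the Controls, against 10091, 842 and 155 FPKM in the HeatShock libraries. As a percentage of the sum of the 9 other genes this was 20.7, 19.6 and 21.1 in the Controls, against 283, 21.9 and 19.5 in the HeatShock libraries. HeatShock replicates 2 and 3 thus lay near the Controls on this scale, and HeatShock replicate 1 alone stood apart. The log2 fold change was 2.17 as deposited, 1.30 after the common factor, and 0.57 and 0.04 on these 2 scales without HeatShock replicate 1.

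The value of 10091 rested on 1 short transcript. In the Controls and in HeatShock replicate 3 the only transcript listed was the annotated one, NM_005022, with 3 exons and 1365 nt. In HeatShock replicate 1 NM_005022 had 326 FPKM (Cufflinks 95% interval 314 to 338), and an assembled transcript of 159 nt had 9765 FPKM (9229 to 10302). This transcript had an exon of 158 nt at 4848943 to 4849100, which apart from its outermost bases lies in the 3′ UTR (4848947 to 4849197 in GENCODE). Its other exon, of 1 nt, was at 4849302, in the intron, 10 nt upstream of the last exon, which begins at 4849292. Another transcript, of 1 exon, 879 nt and no strand (4848943 to 4849821), had 544 FPKM and was not counted to the gene. In HeatShock replicate 2 an assembled transcript of 4 exons and 1264 nt, which reached 4852761, had 668 FPKM and NM_005022 had 173 FPKM.

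Cufflinks also lists for each transcript a share. In groups of 2 long transcripts, whether annotated or assembled, it followed the share of fragments, and short transcripts were not part of that check. By this share the 159 nt transcript held 14.9% of the fragments at PFN1 in HeatShock replicate 1, NM_005022 held 43.2% and the transcript without a strand 42.0%, while the 159 nt transcript had 91.8% of the FPKM. For each percent of fragments the 159 nt transcript thus carried 87.0 times the FPKM of NM_005022, where the ratio of their lengths was 8.58. For the 1264 nt transcript of HeatShock replicate 2, with 77.9% of the fragments, this was 1.10 times, against a length ratio of 1.08.

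**Figure D3:**
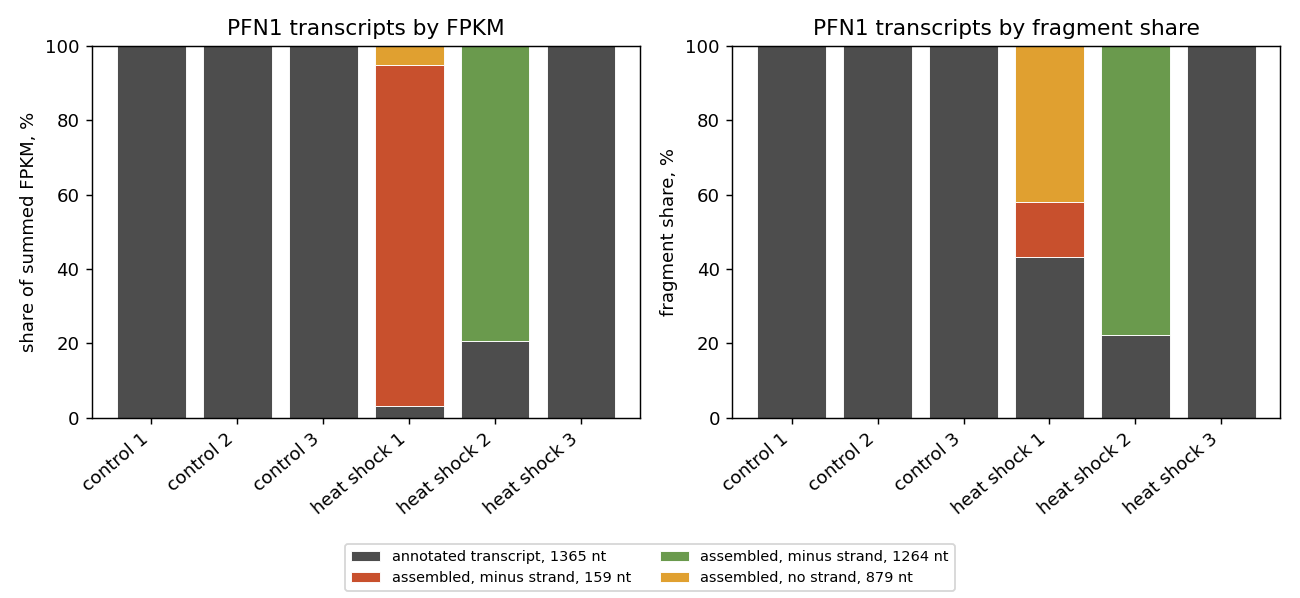
Share of each PFN1 transcript in each library, by FPKM (left) and by the fragment share that Cufflinks lists (right), in percent of all transcripts at the gene, including the one without a strand. The 159 nt transcript of HeatShock replicate 1 takes 91.8% at the left and 14.9% at the right.

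The level of PFN1 in HeatShock replicate 1 depended on which transcripts were counted. The measure at the annotated length below uses the listed share, which was not checked for short transcripts. When all fragments at the locus, those of the transcript without a strand included, were expressed at the length of NM_005022, a measure chosen after the values were seen, PFN1 had 314, 139 and 329 FPKM in the Controls, against 755, 784 and 155 FPKM in the HeatShock libraries. Divided by the common factor it was 334, 319 and 344 in the Controls, against 354, 338 and 319 in the HeatShock libraries, or 332 ± 12 and 337 ± 18 (SD, n = 3), and the groups overlapped. As a percentage of the sum of the 9 genes it was 20.7, 19.6 and 21.1 in the Controls, against 21.1, 20.4 and 19.5 in the HeatShock libraries. Without the transcript that has no strand, which the sum of the gene leaves out as well, HeatShock replicate 1 was 438 FPKM, or 206 divided by the factor, which is below the other 5 libraries on that scale, and their values did not change. NM_005022 alone, divided by the factor, was lower in HeatShock replicates 1 and 2, at 153 and 74.8, than in the other 4 libraries, at 319 to 344.

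**Figure D4:**
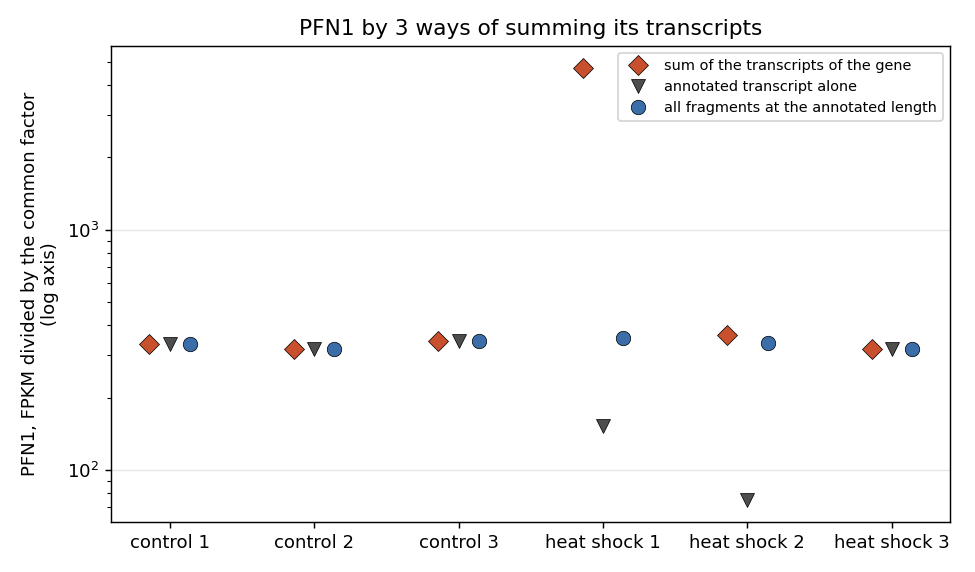
PFN1 in each library, in FPKM divided by the common factor on a log axis, by 3 ways of summing: all transcripts of the gene (diamonds), the annotated transcript alone (triangles) and all fragments at the annotated length, with those of the transcript without a strand (circles). The circles lie between 319 and 354 in all 6 libraries, while the diamond of HeatShock replicate 1 is at 4736.

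PFN1 was not alone in being led by a short transcript in 1 library. Of the 4237 genes above 10 FPKM in HeatShock replicate 1, 9 had over 90% of their FPKM from assembled transcripts under 200 nt, and PFN1 had the most FPKM of the 9, followed by PHGDH, with 5700 FPKM. HeatShock replicate 2 had 5 such genes, Control replicates 1 and 3 had 1 each and the other 2 libraries had 0. The 5 genes whose log2(FPKM + 1) followed that of PFN1 most closely over the 6 libraries, of 2914 genes, were PEMT (Pearson r = 0.997), CPSF3 (0.997), EIF3L (0.997), SMYD2 (0.995) and DTNBP1 (0.993). They were chosen for following PFN1, its value in HeatShock replicate 1 included, so their high values in that library are a description. There an assembled transcript, of 183 nt in PEMT and 364 to 693 nt in the others, held 91.0% to 95.5% of the FPKM of each gene, and 1 assembled transcript held over 90% in 12.4% of the 4237 genes above 10 FPKM. The other members had r of 0.80 to 0.87 with PFN1, and TPM1 was under the minimum of 10 FPKM used here. The 6 points of each correlation share the depth and the common factor of their libraries.

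The pooled FPKM that the authors deposited for each group, with no value for single libraries, gave 4.01 to 4.95 times as much in the heat shock as in the control column for the 10 genes. Over 4181 named loci above 5 FPKM in the control column the median of this ratio was 4.32, with quartiles of 3.87 and 4.67. For the 9 genes the pooled control value was 1.03 to 1.37 times the mean of the 3 libraries, and the pooled heat shock value was 2.42 to 3.04 times the mean. PFN1 had a pooled value of 5017 FPKM in the control column, 19.3 times the mean of its 3 Control libraries, and 23226 FPKM in the heat shock column, 6.28 times the mean. Its ratio of 4.63 was thus among those of the other members. Each of its pooled values was above every library of its own group, which was not particular to PFN1. The pooled heat shock values of all 10 genes were 1.64 to 2.30 times their highest HeatShock library. The pooled control values of ACTG1, PFN2, CFL1, TMSB10, TMSB4X and MYL6 were also above every Control library, and those of ACTB, TPM1 and TPM3 were not.

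**Figure D5:**
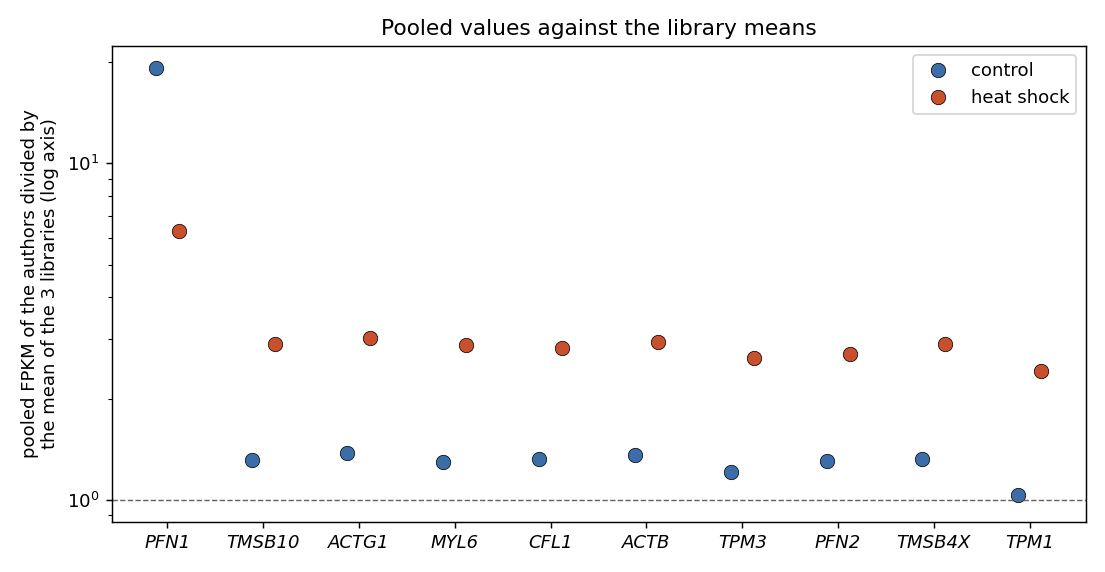
Pooled FPKM of the authors for each gene, divided by the mean of the 3 libraries of the group, on a log axis, for control (blue) and heat shock (orange). The dashed line marks equality, and PFN1 lies at 19.3 and 6.28 while the other genes lie at 1.03 to 1.37 and 2.42 to 3.04.

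Other genes of the actin system were followed through 8 lists, which held 102 genes, of which 92 were tested. None was called as deposited or after the common factor (limma), where 4 genes in each case had an unadjusted p under 0.05, against 3.69% of all genes tested as deposited and 3.15% after the factor. The median log2 fold change was 0.66 over the 92 genes and -0.12 over the 94 tested after the common factor, beside 0.45 and -0.24 over all genes. The list of cofilin relatives and other monomer binders had a median of 0.50 (12 genes), and -0.15 after the factor (13 genes). For the Arp2/3 complex, which branches filaments, and its activators, these were 0.81 and -0.00299 (14 genes), and for formins and ENA/VASP, which lengthen filaments, 0.38 and -0.27 (10 genes). After the factor the median was below 0 in all 8 lists. Capping, crosslinking and anchoring proteins had 0.68 and -0.13 (19 genes), and tropomyosins and non-muscle myosins 0.61 and -0.12 (13 genes). SRF with its coactivators and targets had 0.39 (9 genes) and -0.16 (8 genes). Of 9 muscle actins and muscle isoforms 3 were tested, with a median of -0.72, and 5 after the factor, with a median of -0.75, and the highest value of any in a library was 4.90 FPKM.

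Among the genes of these lists with a mean of 10 FPKM or more, TLN1 had the largest log2 fold change after the common factor. TLN1, which ties integrins to actin (chromosome 9, 35697334 to 35732392), was 12.3, 15.7 and 8.24 in the Controls, against 22.6, 31.3 and 24.9 in the HeatShock libraries, in FPKM divided by the common factor. The groups did not overlap, and the log2 fold change of 1.09 ± 0.26 was not called (limma fit over all genes, unadjusted p = 0.00626, adjusted p = 0.91). Assembled transcripts of 863 to 1053 nt held 44.7, 68.9 and 11.2 FPKM of TLN1 in the HeatShock libraries, while its annotated transcript of 8434 nt, divided by the factor, was 2.82, 2.02 and 1.58 in the Controls, against 1.60, 1.59 and 1.79 in the HeatShock libraries. TPM2, a tropomyosin that neighbours TLN1 (35681990 to 35690053), had 0.98 ± 0.43 on this scale (adjusted p = 0.91), and its leading transcript was an assembled one of 246 nt in HeatShock replicate 1 and of 226 nt in replicate 2. The higher values of both genes in HeatShock replicates 1 and 2 thus came with leading transcripts shorter than those of the Controls.

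Of the other genes named by the rule, WDR1 (0.10 ± 0.40) and CORO1C (-0.05 ± 0.19), both of which act with cofilin, had log2 fold changes after the common factor within their errors. The same was so of TAGLN2 (0.03 ± 0.19), PAK2 (0.43 ± 1.20) and ARPC1B (0.61 ± 0.75). RHOA, the GTPase that drives stress fibres, had -0.23 ± 0.20, FLNA had -0.81 ± 0.76, WASF2 had -0.91 ± 0.82, MYH10 had -0.62 ± 0.49 and EVL had 0.49 ± 0.40. None of these 10 genes passed the test (limma, adjusted p = 0.91 to 0.972), and in each the groups overlapped. ARPC4, a subunit of the Arp2/3 complex chosen after its values were seen, was listed at 0 in the 3 Controls, against 18.1, 16.4 and 2.71 FPKM in the HeatShock libraries. In all 6 libraries its annotated transcripts were grouped with ARPC4-TTLL3 and TTLL3, and assembled transcripts of this group, of 1.56 to 15.3 FPKM in total, were counted to none of these genes.

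Promoters of the members were compared with the response elements of the pathways above. RefSeq sequences of 250 bases before and 50 after the start were used (GRCh38.p14), which held 8 of the 10 members. ACTB and PFN2 were not among them, so their promoters were not searched. The CArG box, to which SRF binds, was found in the promoter of 1 of the 8, ACTG1, beginning 94 bases before the start, and in 1.29% of 35116 promoters. It is shown, with the box in capitals, as the single match among the 8 members searched.
ACTG1, chr17:81512874-81512903, minus strand: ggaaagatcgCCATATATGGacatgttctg
The inverted repeats of the heat shock element, GAANNTTC or TTCNNGAA on either strand, were found in 0 of the 8 and in 13.5% of all promoters. Of the 4 heat shock genes taken as a check, 3 held one of these repeats, and HSPH1 did not. For comparison, GAANNTTC is shown in capitals for HSPA1B and DNAJB1.
HSPA1B, chr6:31827623-31827650, plus strand: gaaacccctgGAATATTCccgacctggc
DNAJB1, chr19:14518427-14518454, minus strand: gcgggctctgGAAGCTTCcgccggacgg
A match is a description of letters in this window and not of a bound factor.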

How the data were processed

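Total RNA of 6 HEK293 samples (3 Control, 3 HeatShock, by the sample labels) was depleted of ribosomal RNA with RiboMinus and prepared with a TruSeq RNA kit. Per the labels and the submitters' processing notes, the authors used FastQC 0.10.1, Trimmomatic 0.3.0, TopHat2, Cufflinks 2.0.2 and Cuffdiff on hg19. The deposited value of a transcript in a library is an FPKM from Cufflinks, which scales fragments by an effective length and the mapped fragments, with a 95% interval that covers counting and assignment only. The deposited table of the group comparison gives 1 pooled FPKM for each group, used here as the authors' value, and p-values and fold changes, which were not used. Library totals of counts are not used here, so depth is relative.

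FPKM were summed by gene over annotated transcripts and the assembled transcripts grouped with them alone. Of 43536 annotated transcripts 96.5% took their symbol from the RefSeq accession and 614 from the name in the file, and 903 stayed under the accession. The fit used limma 3.58.1 (R 4.3.3), a trend in eBayes and log2(FPKM + 1) of 13026 genes averaging 1 FPKM or more, with Benjamini-Hochberg adjustment, so fold changes of low genes are understated. Shares and ratios were compared by exact permutation tests.

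The members and lists were chosen with earlier results of these data known. The text names the members, called genes of the lists, the 2 genes of each list with the largest change after the common factor at 10 FPKM or more (formins and SRF had 1), 4 heat shock genes and the 5 genes most correlated with PFN1. The meaning of the share that Cufflinks lists is not given in the sources used here. In 298 to 894 groups of 2 long transcripts per library, whether annotated or assembled, it was compared with the shares of FPKM times length and of FPKM. The median difference was 0.0021 to 0.00604 from the former and 0.0256 to 0.0644 from the latter. These groups held no transcript under 200 nt, so this reading was not checked for short transcripts. Protein sequences were not used here. A marker, a list and some sequences are not reported here. Alternatives were another pseudocount (0.1), 3 other scalings, no minimum and a minimum of 10 FPKM, no trend, annotated transcripts alone, a replicate block, a term for the 3 libraries richest in strandless transcripts, each library left out and, added after the values were seen, assembled transcripts under 200 nt left out and PFN1 at its annotated length.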

Additional observations from a re-analysis of the deposited data

Results flagged for a closer look

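A transcript at PFN1 without a strand, listed with 544 FPKM in HeatShock replicate 1, lay outside the sum of the gene and of every test. No such transcript was listed at PFN1 in the other 5 libraries, the 3 Controls and HeatShock replicates 2 and 3.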

How the results depend on the processing

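None of the 9 tested members was called under any alternative run (TPM1 was under a minimum of 10 FPKM and has no value there). Over all genes, 3 were called as deposited, 2 higher and 1 lower. With the common factor this was 0, with or without transcripts under 200 nt and with or without the replicate block, and with no minimum FPKM also 0. Median-of-ratios over all genes, no trend and annotated transcripts alone each gave 1 higher and 0 lower, and a minimum of 10 FPKM gave 4 higher and 0 lower. Leaving out 1 library gave 0 to 10 called, 0 to 9 higher and 0 to 1 lower, with 0 called without any 1 Control, 1 without HeatShock replicate 1, 2 without replicate 2 and 10 without replicate 3, and 0 throughout with the common factor. At an unadjusted p under 0.05 the common factor gave 94 higher and 342 lower. The cause of these differences was not tested.

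The replicate numbers are not known to pair the samples (correlations of deviations 0.0266, -0.327 and -0.378), and the replicate block gave 17 called genes, 12 higher and 5 lower.

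Signs turned in ACTB with the common factor (-0.0546 with or without the replicate block, and -0.0531 without transcripts under 200 nt) and, in the same fits, in TMSB4X (-0.175 and -0.173), TPM1 (-0.12 and -0.119) and TPM3 (-0.0564 and -0.0549). As TPM, TMSB4X was -0.0644 and TPM1 -0.00864. ACTG1 was -2.22 with annotated transcripts alone, where HeatShock replicate 1 is listed at 0. With 1 library left out, with or without the factor, the log2 fold change ran from -0.143 to 1.48 in ACTB, -0.0156 to 1.65 in ACTG1, -0.0398 to 1.63 in PFN2, -0.253 to 1.22 in TMSB4X, -0.0519 to 1.63 in MYL6, -0.178 to 1.26 in TPM1 and -0.142 to 1.42 in TPM3. Of the 9 shares 0 to 3, and of the 7 ratios 0 to 2, had groups that did not overlap when 1 library was left out. Groups this small can separate by order alone, and these counts have no background over other genes, so nothing is read from them. PFN1 was 0.52 without transcripts under 200 nt, -0.346 without them after the common factor, -0.234 with annotated transcripts alone and 0.89 at its annotated length, against 2.17 as deposited. Depth is known only in relative terms, so no limit from counts can be given.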
